A study of Mus musculus with 4 samples.

Results

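The 9 genes described here encode enzymes that break down leucine, isoleucine and valine, the branched-chain amino acids. They were taken by name from a table of 19632 gene rows that gives the mean normalized expression of each gene in each of 23 clusters of kidney cortex nuclei and in each of 4 mice. All 9 were found. The members are Bcat1, Bcat2, Bckdha, Bckdhb, Dbt, Ivd, Mccc1, Pcca and Pccb, and another 38 genes of the same pathway and its transporters are given by their counts.

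Breakdown of a branched-chain amino acid begins with a transaminase, cytosolic BCAT1 or mitochondrial BCAT2, which moves the amino group to α-ketoglutarate. The branched-chain α-ketoacid dehydrogenase complex then commits the carbon skeleton to oxidation. BCKDHA and BCKDHB are the α and β subunits of its E1 decarboxylase and DBT is its E2 core. Isovaleryl-CoA dehydrogenase (IVD) and methylcrotonyl-CoA carboxylase, of which MCCC1 is the biotin-bearing subunit, act in the leucine branch, and propionyl-CoA carboxylase, built from PCCA and PCCB, takes the propionyl-CoA that isoleucine and valine yield. The proximal tubule reabsorbs filtered amino acids and depends on oxidation in mitochondria.

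Single-nucleus RNA sequencing was performed on kidney cortex from 4 male mice of mixed strain, 1 per condition. The control mouse and the control mouse with aristolochic acid I (AAI) carried TRE-hKLF6, a doxycycline-responsive human KLF6 transgene, without a driver. The hKLF6OE mouse and the hKLF6OE mouse with AAI carried CAG-rtTA and TRE-hKLF6, so that the zinc finger transcription factor KLF6 could be induced in all cells rather than in the tubule alone. Per the methods of the study, doxycycline diet was given from 1 week before a single injection of AAI at 2 mg/kg, a plant toxin that forms DNA adducts in proximal tubule cells, and kidneys were taken after 24 hours. The mice without AAI are labelled as untreated.

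Values are counts per 10000 counts of a nucleus, averaged by the authors over the nuclei of 1 cluster and 1 mouse. The study gives read depth as a range and nuclei as totals. Neither is known here for a single cluster of a mouse, so no interval could be given for a value. With 1 mouse per condition, no difference between conditions could be set against a spread between mice. Values are compared between clusters or mice within a gene, and not between genes. Differences are of log2(value + 1), a scale that understates the change of low genes. A gene passed where the larger value was at least 0.5 and was called higher or lower at a difference of 0.2 or more, in every mouse where a comparison was made within mice. The human transgene has no row of its own in the table, and mouse Klf6 averaged 0.215, 0.406, 0.137 and 0.327 over the normal proximal tubule in control, control with AAI, hKLF6OE and hKLF6OE with AAI, so the genotype labels were not checked by these values. Of 50 cell type markers in the table, 45 were highest in a cluster of the type they name. Genes listed at 0 made up 15.1% to 23.1% of rows in the normal proximal tubule without AAI and 21% to 31.3% with AAI. The InjuredPT-A and InjuredPT-B columns of mice without AAI had 40.8% to 62.6% of rows at 0, and enter no difference given here.

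All 9 genes are annotated as protein coding in GENCODE on GRCm38, the mm10 build to which the reads were aligned with introns counted. Pcca has the longest span at 356.8 kb (chr14:122534324-122891100), then Bckdhb at 199.1 kb (chr9:83925145-84124240) and Bcat1 at 82.4 kb (chr6:144993835-145076184). Ivd spans 21 kb at chr2:118861954-118882909 and Bckdha spans 29 kb at chr7:25629946-25658981, where it overlaps B3gnt8 on the opposite strand. Bcat1, Bcat2, Bckdhb and Mccc1 also overlap antisense genes and Pcca overlaps Ggact on the opposite strand. The strand setting of the counting is not given in the sources used here.

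The promoters of Bcat1, Bckdhb and Ivd are shown because these 3 genes carry most of the differences described below, and because KLF6 is known to bind GC-rich and CACCC elements. The sequences are from RefSeq on GRCm38.p6, upstream of the annotated start and written 5′ to 3′ on the strand of the gene. Capitals mark GGGCGG or CACCC, read on both strands, so that CCGCCC and GGGTG are the same motifs on the other strand.
Bcat1, chr6:145076185-145076407, minus strand: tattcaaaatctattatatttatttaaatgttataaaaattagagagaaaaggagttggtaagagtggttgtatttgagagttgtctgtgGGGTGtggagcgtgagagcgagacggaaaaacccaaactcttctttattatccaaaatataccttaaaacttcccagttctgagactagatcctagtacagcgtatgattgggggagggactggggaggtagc
Bckdhb, chr9:83924887-83925136, plus strand: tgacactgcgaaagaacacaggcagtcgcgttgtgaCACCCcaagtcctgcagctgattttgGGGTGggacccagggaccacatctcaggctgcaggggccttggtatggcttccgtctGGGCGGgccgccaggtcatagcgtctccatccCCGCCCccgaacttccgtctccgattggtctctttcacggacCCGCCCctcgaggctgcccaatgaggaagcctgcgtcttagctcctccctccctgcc
Ivd, chr2:118861744-118861953, plus strand: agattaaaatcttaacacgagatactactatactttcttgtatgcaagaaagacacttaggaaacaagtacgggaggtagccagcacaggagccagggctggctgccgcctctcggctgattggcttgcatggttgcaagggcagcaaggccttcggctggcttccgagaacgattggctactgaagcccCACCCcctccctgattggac
The Bckdhb window holds 3 matches to GGGCGG and 2 to CACCC. The Bcat1 and Ivd windows hold 1 CACCC each and 0 GGGCGG. Of 32851 promoters cut to the same lengths, CACCC is found in 48.3% for the Bcat1 window, 52% for Bckdhb and 46.2% for Ivd, and GGGCGG in 28.9%, 32.7% and 26.7%. These letters are common in promoters, and a match is not evidence of binding.

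Each member had its own distribution over the nephron. Among the transaminases, Bcat1 was concentrated in PT-S3-2, a cluster of the late (S3) proximal tubule. It stood at 1.63 in control, 3.43 in control with AAI, 4.80 in hKLF6OE and 2.90 in hKLF6OE with AAI. The next cluster by its mean, named EC-1, ranged from 0.248 to 0.516, so the ranges of the 4 mice did not overlap, and the EC-1 range overlapped that of its neighbour in the order. The endothelial markers were highest in EC-2 rather than EC-1, with Emcn at a mean of 18.7 against 2.67, and EC-1 held the proximal tubule transporter Slc34a1 at 32.1 and the ascending limb cotransporter Slc12a1 at 31.4, so its name is used only as a label. In the other S3 clusters Bcat1 ranged from 0.0312 to 0.0910 in PT-S3-1 and from 0.0231 to 0.431 in PT-S3-3. Bcat2, the mitochondrial form, was highest in LH-AL-2 of the ascending limb of the loop of Henle (0.678 to 0.873), in the distal convoluted tubule DCT (0.661 to 0.796) and in LH-AL-1 (0.602 to 0.722). These 3 ranges overlapped, and Bcat2 stayed between 0.136 and 0.401 in the 5 normal proximal tubule clusters.

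**Figure D1:**
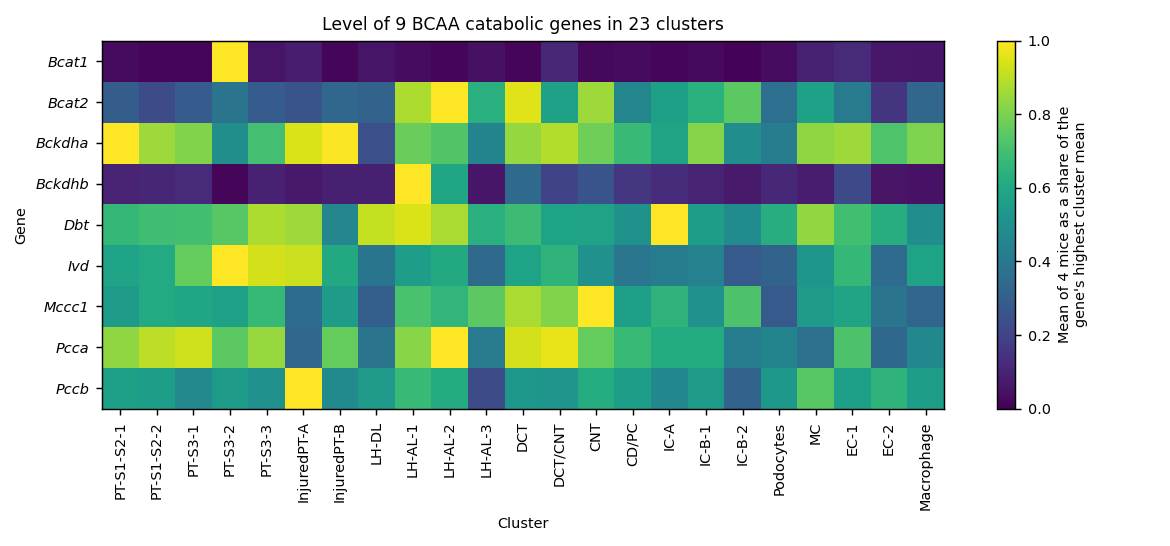
Level of the 9 genes (rows) in the 23 clusters (columns), as the mean of 4 mice divided by the highest cluster mean of the same gene. Bcat1 is concentrated in PT-S3-2, with a mean of 3.19 there and 0.387 in the next cluster, while Bckdhb peaks in LH-AL-1 with a mean of 14.3. The injured columns include the mice without AAI, which have many rows at 0.

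Of the dehydrogenase subunits, Bckdhb had the steepest gradient. It reached 13.3, 15.2, 15.6 and 13.1 in LH-AL-1, in the order control, control with AAI, hKLF6OE and hKLF6OE with AAI. LH-AL-2 followed with 8.70, 8.04, 9.22 and 7.83, and DCT with 5.09, 4.73, 4.99 and 5.01. These 3 clusters did not overlap over the 4 mice. PT-S3-2, the cluster with the most Bcat1, had the lowest mean, at 0.418, 0.141, 0.291 and 0.256. Its range overlapped that of macrophages, the next cluster (0 to 1.24), and in single mice it was not always the lowest, since LH-AL-3 stood at 0.141 in control and PT-S3-3 at 0.170 in hKLF6OE with AAI. The connecting tubule CNT (3.13 to 4.18) and EC-1 (2.58 to 3.95) came next and overlapped each other. Slc12a1, which defines the ascending limb, had a mean of 206 in LH-AL-1, and the part of such RNA in the Bckdhb level of EC-1 was not tested.

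Bckdha, which pairs with Bckdhb in the E1 enzyme, did not share this gradient. Its highest mean was in PT-S1-S2-1 of the early proximal tubule, with 1.85, 2.00, 1.94 and 1.19 in the same order of mice. That range overlapped the other early cluster, PT-S1-S2-2 (1.20 to 1.66). It also overlapped clusters outside the proximal tubule, among them DCT (1.31 to 1.63) and LH-AL-1 (0.758 to 1.69). In hKLF6OE with AAI, DCT stood above PT-S1-S2-1, at 1.31. Dbt varied little, with a highest mean of 0.618 in the type A intercalated cells IC-A and most clusters overlapping, and lay between 0.320 and 0.631 in the normal proximal tubule.

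**Figure D2:**
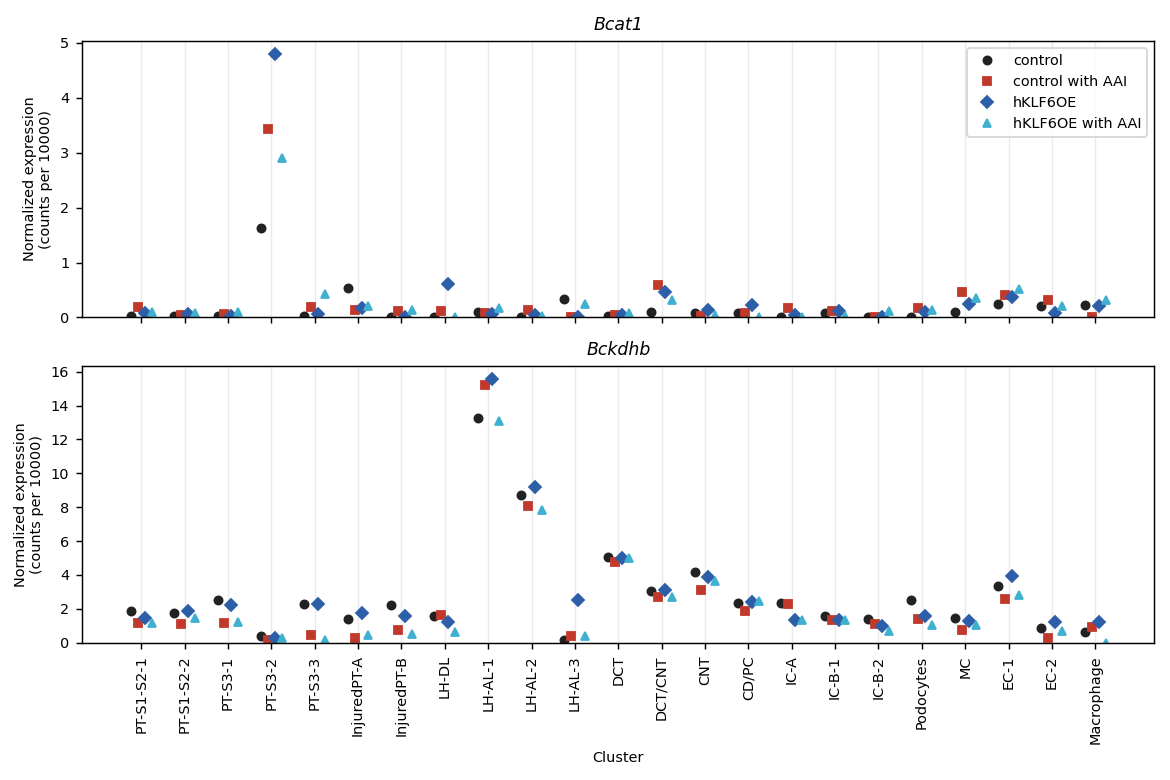
Normalized expression (counts per 10000) of Bcat1 and Bckdhb in each cluster, with 1 point per mouse. Bcat1 stands out in PT-S3-2 (1.63 to 4.80), where the Bckdhb mean is lowest (0.141 to 0.418), and Bckdhb is highest in LH-AL-1 (13.1 to 15.6).

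LH-AL-1 and LH-AL-2 together were set against the 5 normal proximal tubule clusters, leaving out LH-AL-3, the other ascending limb cluster. This contrast was chosen once the data had been seen, as was that of PT-S3-2 given later. Bckdhb was higher by 2.12, 2.81, 2.35 and 2.62 on the log2 scale and Bcat2 by 0.55, 0.42, 0.46 and 0.48. These were 2 higher and 0 lower of 7 members that passed, where 20.1% of 3956 genes were higher and 23.7% lower. The clusters were built from the expression of all genes, these included, so such contrasts describe the clusters. In LH-AL-3, where Slc12a1 had a mean of 125, Bckdhb stood at 0.141, 0.402, 2.55 and 0.420 in the 4 mice. The columns of LH-AL-3 had 60.5% to 63.4% of rows at 0. The higher Bckdhb is thus given for LH-AL-1 and LH-AL-2 only.

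Of the enzymes downstream, Ivd was highest in PT-S3-2 (2.96, 2.03, 2.84 and 1.88) and PT-S3-3 (3.04, 1.92, 2.48 and 1.67), which overlapped. Mccc1 was highest in CNT (1.35 to 1.66), overlapping DCT, and lowest in podocytes (0.358 to 0.521). Pcca was highest in LH-AL-2 (3.67 to 4.48), overlapping several distal and proximal clusters, and had its lowest mean in InjuredPT-A, where it was 1.21 and 0.782 in the AAI mice. Pccb had its highest mean in InjuredPT-A, but this rests on the columns without AAI, at 1.79 and 2.21 with many rows at 0, against 0.571 and 0.545 with AAI.

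Within the normal proximal tubule, the question was whether the genes follow the segments. The mean of the 3 PT-S3 clusters was compared with that of the 2 PT-S1-S2 clusters in each mouse. Bcat1 was higher in S3 by 0.60, 1.00, 1.29 and 0.97, and Ivd by 0.41, 0.40, 0.38 and 0.32, in the order control, control with AAI, hKLF6OE and hKLF6OE with AAI. These were 2 higher and 0 lower of 7 members that passed, against 10.4% and 12.4% of 3637 genes. Bcat2 and Dbt did not pass the filter on low values in every mouse, here or in the proximal tubule means compared below, although Dbt passed in single mice and clusters (0.511 in S3 of control with AAI). Bckdha was lower in S3 in all 4 mice, but by only 0.17 in hKLF6OE with AAI, and was not called. Bckdhb differed by -0.05 and -0.03 without AAI and by -0.43 and -0.59 with AAI.

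PT-S3-2 was also compared with the other 4 normal proximal tubule clusters. Bcat1 was higher by 1.35, 1.98, 2.45 and 1.73 and Ivd by 0.24, 0.35, 0.30 and 0.41. Bckdhb was lower, with differences of -1.13, -0.79, -1.19 and -0.68, and Bckdha with -0.40, -0.51, -0.43 and -0.26. PT-S3-2 therefore had more of a transaminase and of the leucine-branch dehydrogenase and less of both E1 subunits. Across all genes, 10.1% of 3621 were higher and 12.5% lower.

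Among the other 38 pathway genes, 25 passed in the S3 comparison, 4 higher and 6 lower. The largest differences were of amino acid carriers lower in S3. Slc7a8 (LAT2, a basolateral exchanger of neutral amino acids) stood at 0.333 against 5.66 in the control mouse, a difference of -2.32. Slc6a19 (B0AT1, the apical neutral amino acid carrier) had a difference of -1.73 and Slc43a2 (LAT4) of -1.45. Ehhadh, the peroxisomal bifunctional enzyme, was higher in S3 by 1.20 in that mouse, Acadm, the medium-chain acyl-CoA dehydrogenase, was higher by 0.73, and the coactivator Ppargc1a had a difference of -0.64. Of all genes, 10.4% were higher and 12.4% lower, as above.

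The effect of hKLF6OE without injury was taken over the normal proximal tubule, averaging its 5 clusters. Bcat1 was the only member called, at 0.350 in control and 1.01 in hKLF6OE (log2 difference 0.57). This was 1 higher and 0 lower of 7 members, where 7.84% of 4041 genes were higher and 9.33% lower. The difference came from PT-S3-2, where Bcat1 went from 1.63 to 4.80 (1.14), and it was 0.040 without that cluster. The other 6 members that passed differed by -0.09 to 0.07.

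Of the other pathway genes, 26 passed, with 0 higher and 4 lower in hKLF6OE. Ehhadh was 8.47 in control and 4.15 in hKLF6OE (-0.88). Agxt2, a mitochondrial aminotransferase, followed with -0.26, Slc6a19 with -0.22 and Slc43a2 with -0.20.

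**Figure D3:**
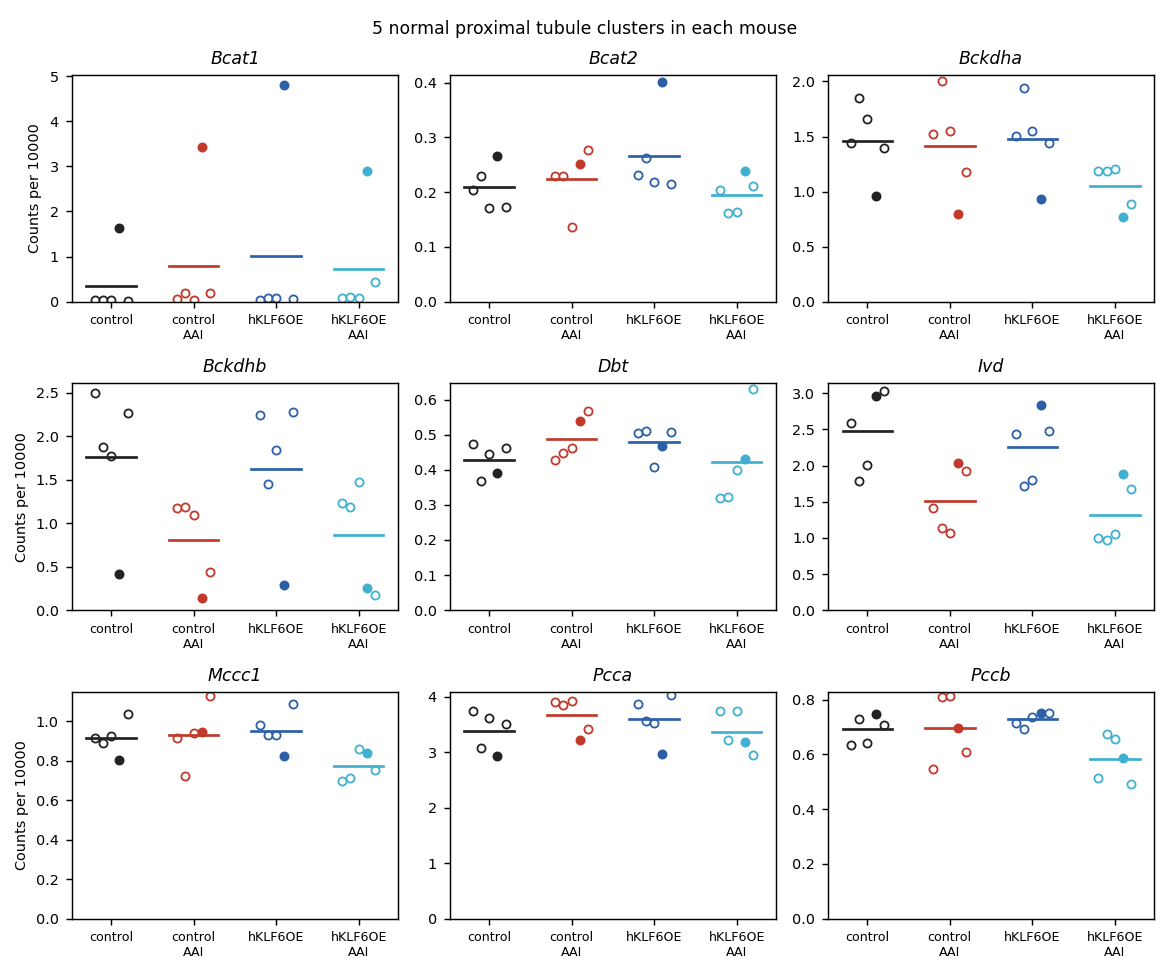
Normalized expression (counts per 10000, a separate scale per gene) in the 5 normal proximal tubule clusters of each mouse, in the order PT-S3-1, PT-S1-S2-1, PT-S1-S2-2, PT-S3-2 and PT-S3-3 from left to right. Filled points are PT-S3-2 and lines are means of the 5 clusters. Ivd and Bckdhb means are lower with AAI in both genotypes (Ivd 2.48 to 1.51 and 2.26 to 1.32), and the Bcat1 mean rests on PT-S3-2.

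AAI was compared with no AAI within each genotype, in the clusters labelled as normal proximal tubule. Proximal tubule markers differed there too. The summed level of Slc34a1, Slc5a12 and Lrp2 in PT-S3-3 went from 80.9 to 26.4 in control and from 58.0 to 24.2 in hKLF6OE. In PT-S3-1 it went from 91.8 to 61.9 in control and from 65.7 to 79.4 in hKLF6OE. In the other normal clusters it was lower with AAI in both genotypes. The part of these marker differences in those of the members was not tested. In control mice, Bckdhb went over the normal proximal tubule from 1.76 to 0.804 (-0.61) and Ivd from 2.48 to 1.51 (-0.47), while Bcat1 went from 0.350 to 0.783 (0.40). These were 3 members called of 7, 1 higher and 2 lower. Of 4052 genes 23% were called in either direction, 475 higher (11.7%) and 456 lower. In hKLF6OE mice, Bckdhb went from 1.62 to 0.864 (-0.49), Ivd from 2.26 to 1.32 (-0.49), Bckdha from 1.47 to 1.05 (-0.27) and Bcat1 from 1.01 to 0.721 (-0.22). These were 0 higher and 4 lower of 7, against 19.5% and 15.4% of 4133 genes. Bckdhb and Ivd were thus lower with AAI in both genotypes, as were 5.83% of 3892 genes. The median difference of the 7 members was 0.0018 in control and -0.22 in hKLF6OE, where that of all genes was 0.0067 and 0.045.

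Ivd, the leucine-branch dehydrogenase, had the most even difference. It was lower with AAI past the threshold in all 5 normal proximal tubule clusters of both genotypes, from 2.59 to 1.41 and from 2.44 to 0.999 in PT-S3-1. Such a difference in each of the 5 clusters of both genotypes was found in 1.72% of 3136 genes. No normal proximal tubule cluster of an AAI mouse reached the value of the same cluster in the mouse of its genotype without AAI. Clusters of a mouse are not replicates, and 1 library can shift all of them.

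The Ivd difference was not confined to the proximal tubule. Over the 21 clusters other than the injured ones, it was lower past the threshold in 17 in control and 16 in hKLF6OE, with medians of -0.41 and -0.45. As many clusters lower were found in 2.77% of 2093 genes in control and 8.38% of 2100 in hKLF6OE. In DCT the differences were -0.44 and -0.47. The summed level of 3 proximal tubule transport markers, Slc34a1, Slc5a12 and Lrp2, was also lower with AAI in all 16 clusters outside the proximal tubule in both genotypes, with a median difference of -0.47 in each and levels of 11.5 to 75.6 without AAI and 6.99 to 59.6 with it. The part of such RNA from outside a nucleus's own cell type in the Ivd difference was not tested.

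Bckdhb had an uneven difference. In PT-S3-3 it went from 2.26 to 0.433 in control (-1.19) and from 2.27 to 0.170 in hKLF6OE (-1.48). In PT-S3-1 the differences were -0.68 and -0.54. In PT-S1-S2-2 they were -0.40 and -0.20, and PT-S3-2, already low, did not pass. In PT-S1-S2-1 Bckdhb went from 1.88 to 1.18 in control and from 1.45 to 1.19 in hKLF6OE, where it fell short of the threshold. DCT held 5.09 and 4.73 in the control mice and 4.99 and 5.01 in the hKLF6OE mice, differences of -0.086 and 0.0034. LH-AL-1, with the highest levels, differed by 0.18 and -0.23. Lower values were not confined to the proximal tubule. Of the 16 clusters outside it, Bckdhb was lower past the threshold in 6 and higher in 1 in control. In hKLF6OE it was lower in 9 and higher in 0. Among the lower were podocytes (2.49 to 1.42 and 1.57 to 1.04) and EC-1 (3.32 to 2.58 and 3.95 to 2.79). Of all genes in control, 12% (DCT) to 43.4% (LH-AL-3) were lower in such a cluster. In podocytes 27.9% of genes were lower in control and 33.6% in hKLF6OE, and in EC-1 12.7% and 14.9%. Without PT-S3-3, the Bckdhb mean over the normal proximal tubule in hKLF6OE differed by -0.27 rather than -0.49.

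**Figure D4:**
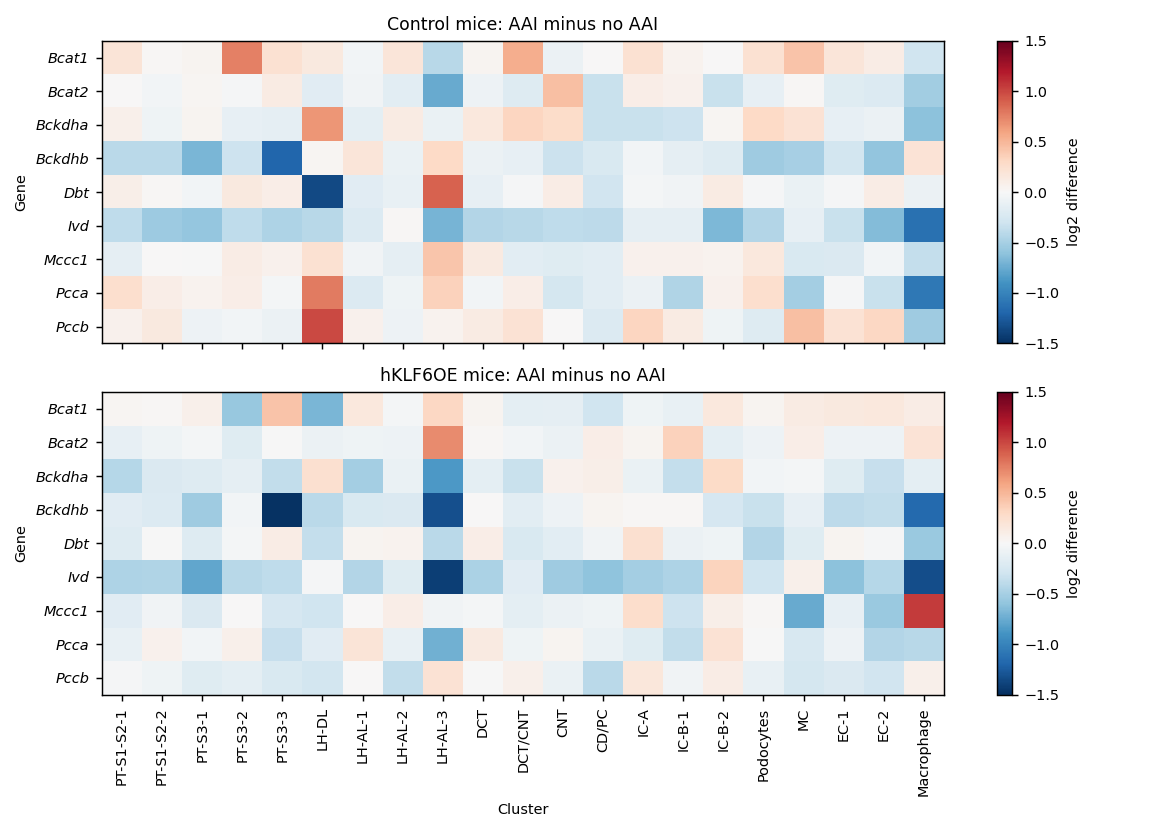
Difference of log2(value + 1) between AAI and no AAI in each genotype for the 9 genes (rows) in 21 clusters (columns), blue for lower with AAI. Ivd is lower past 0.2 in 17 clusters in control and 16 in hKLF6OE, and Bckdhb differs most among normal proximal tubule clusters in PT-S3-3 (-1.19 and -1.48). The clusters LH-DL, LH-AL-3 and macrophages have many rows at 0.

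Bcat1 differed in opposite directions between the genotypes, which rests on PT-S3-2. There AAI went with a difference of 0.75 in control and -0.57 in hKLF6OE. Without PT-S3-2 the mean difference was 0.12 and 0.15, both with larger values below the filter. Bckdha was lower with AAI in 3 of 5 normal proximal tubule clusters in hKLF6OE and in 0 of 5 in control. Of all genes, 16% to 21% were lower in such a cluster in hKLF6OE and 12.5% to 18.6% in control. Among the 5 clusters Bckdha differed most in PT-S1-S2-1, from 1.94 to 1.19 in hKLF6OE against 1.85 to 2.00 in control. Of the 16 clusters outside the proximal tubule, Bckdha was lower in 5 and higher in 2 in hKLF6OE. In control it was lower in 4 and higher in 5. Of all genes in control, 12% to 43.4% were lower in such a cluster and 17.3% to 43.6% higher. The counts over these 16 clusters are not read as a result about Bckdha. In LH-AL-1 Bckdha went from 1.49 to 0.758 in hKLF6OE and from 1.69 to 1.43 in control. Mccc1, Pcca and Pccb differed by 0.0018 to 0.092 in control and by -0.14 to -0.072 in hKLF6OE, and were not called.

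With AAI in both mice, hKLF6OE was compared with control. Bckdha was the only member called, at 1.41 in control and 1.05 in hKLF6OE (-0.24), or 0 higher and 1 lower of 7 members against 6.32% and 7.74% of 3942 genes. It was lower past the threshold in 4 of 5 normal proximal tubule clusters. Of the 16 clusters outside the proximal tubule, it was lower in 4 and higher in 2. No share of all genes is set beside these cluster counts, so they only describe Bckdha in these mice. Of the members that passed, 6 had differences below 0, and Bckdhb had 0.05.

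The other pathway genes gave 2 higher and 5 lower of 26 for AAI in control, where 23% of all genes were called. They gave 2 higher and 7 lower of 27 for AAI in hKLF6OE, where 19.5% of all genes were higher and 15.4% lower, and 1 higher and 4 lower of 26 for genotype with AAI, where these shares were 6.32% and 7.74%. Ehhadh was lowest in hKLF6OE with AAI, at 1.77 against 4.75 in control with AAI, 4.15 in hKLF6OE and 8.47 in control. Its differences were -0.72 and -0.89 for AAI in control and hKLF6OE, and -1.05 for genotype with AAI. Oxct1, which activates ketone bodies, was lower with AAI in both genotypes (-0.48 and -0.35), as were Acat1, the last thiolase of isoleucine and ketone breakdown (-0.21 and -0.44), and Ppm1k, the phosphatase that activates the dehydrogenase complex (-0.33 and -0.40). Slc43a2 was lower with AAI in control, from 3.01 to 1.97 (-0.43), and Slc7a8 was higher with AAI in hKLF6OE, from 2.03 to 2.62 (0.26). Aldh6a1, the valine-branch semialdehyde dehydrogenase, was higher with AAI in control (0.24) and lower in hKLF6OE (-0.21). Between the AAI mice, Slc43a2 was higher in hKLF6OE (0.38), while Acat1 (-0.30), Aldh6a1 (-0.26) and Agxt2 (-0.25) were lower. Comparisons that share a mouse are not independent of each other.

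InjuredPT-A and InjuredPT-B, the injured clusters, were compared, in each AAI mouse, with its 5 normal proximal tubule clusters averaged. In InjuredPT-A, Pcca was 1.21 against 3.66 in control with AAI (-1.08) and 0.782 against 3.37 in hKLF6OE with AAI (-1.29). Bckdhb was 0.296 against 0.804 (-0.48) and 0.437 against 0.864 (-0.37). Not every normal cluster lay above it, since PT-S3-2 held 0.141 and 0.256 and PT-S3-3 held 0.433 and 0.170 in the same order. The mean of the PT-S3 clusters was 0.583 and 0.553. Against that mean, the Bckdhb difference in hKLF6OE with AAI fell short of the threshold. Mccc1 was 0.467 against 0.932 (-0.40) and 0.480 against 0.773 (-0.26). With Bcat1, at -0.65 and -0.50, these were 0 higher and 4 lower of 7 members, where 43.3% of 5008 genes were higher and 27% lower. The median of all genes that passed was 0.22 and 0.16 above 0, and relative to it Pcca stood at -1.30 and -1.46, Bckdhb at -0.70 and -0.54 and Mccc1 at -0.62 and -0.42.

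The called Bcat1 difference describes the normal mean, which PT-S3-2 carries. Without PT-S3-2 it was 0.017 and 0.046 in InjuredPT-A, and -0.0067 and -0.061 in InjuredPT-B. Ivd was not called in InjuredPT-A, at 2.13 against 1.51 in control with AAI (0.32) and 1.45 against 1.32 in hKLF6OE with AAI (0.08). Bckdha differed by 0.14 and 0.16 there. Relative to the median of all genes, Ivd stood at 0.092 and -0.084 and Bckdha at -0.081 and -0.0058. The called members Pcca, Bckdhb, Bcat1 and Mccc1 span 356.8, 199.1, 82.4 and 41.4 kb. The members that passed and were not called, Pccb, Bckdha and Ivd, span 52.9, 29 and 21 kb. Pccb, not called, is longer than Mccc1, which was called. The calls of Bcat1 and Bckdhb depend on which normal clusters are averaged. Whether span has a part in these differences was not tested.

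InjuredPT-B differed less. Pcca was 2.34 against 3.66 (-0.48) and 2.02 against 3.37 (-0.53), and Bcat1 was called as above, so 0 members were higher and 2 lower of 7, against 23.4% and 13.1% of 4148 genes. The median of all genes was 0.12 in both mice, and relative to it Pcca stood at -0.60 and -0.65. Bckdhb was -0.04 in control with AAI and -0.32 in hKLF6OE with AAI, and Mccc1 was -0.35 and -0.04, so neither was called.

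**Figure D5:**
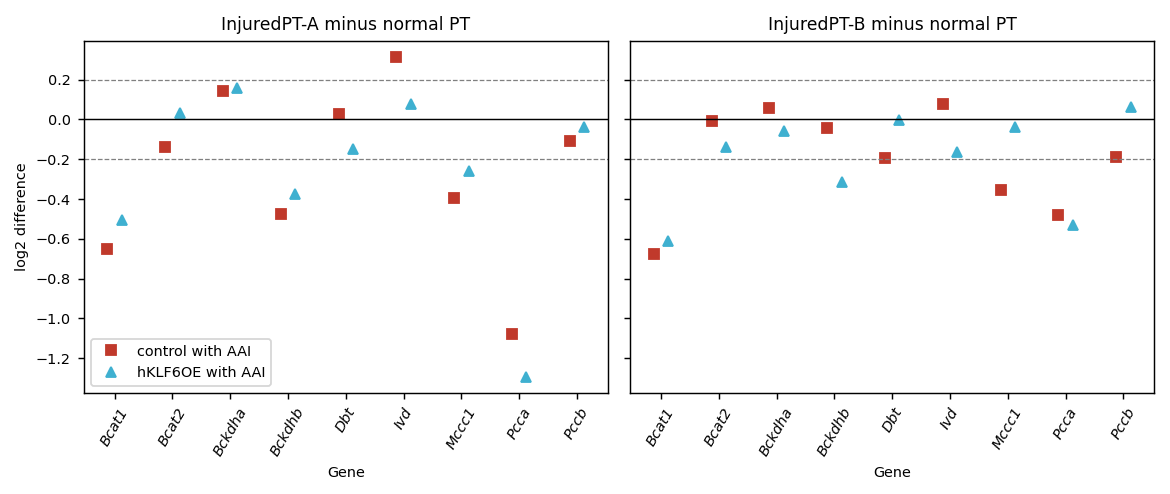
Difference of log2(value + 1) between each injured cluster and the average of the normal proximal tubule in that mouse, with 1 point per AAI mouse and dashed lines at the threshold of 0.2. Pcca is lower in both clusters and both mice (-1.08 and -1.29 in InjuredPT-A, -0.48 and -0.53 in InjuredPT-B).

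Among the other pathway genes, 8 were higher and 10 lower of 29 in InjuredPT-A, where the shares of all genes were 43.3% and 27%. For InjuredPT-B, 1 was higher and 7 lower of 24, against 23.4% and 13.1% of all genes. In InjuredPT-A, Slc3a2, the heavy chain of LAT1 and LAT2 carriers, was higher by 0.86 in control with AAI and 0.65 in hKLF6OE with AAI, and Slc25a44, the mitochondrial carrier of branched-chain amino acids, by 0.74 and 0.62. Slc7a8 was lower, with differences of -1.25 and -1.07, and Agxt2 with -0.85 and -0.55. In InjuredPT-B, Slc3a2 was higher by 0.48 and 0.42, and Slc7a8, Slc6a19, Oxct1 and Acat1 were lower, with differences of -0.68, -0.64, -0.53 and -0.35 in control with AAI and -0.59, -0.56, -0.57 and -0.39 in hKLF6OE with AAI.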

How the data were processed

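Single nuclei of kidney cortex from 4 mice, 1 per condition, were sequenced. Per the methods of the study, Cell Ranger counted reads over introns and exons (a pre-mRNA reference of mm10), genes found in at least 3 nuclei were kept, nuclei with fewer than 200 or more than 6000 genes or over 10% mitochondrial reads were left out, and nuclei were clustered in Seurat. The methods describe no doublet removal for this assay. The deposited values are a signal made by the authors, the mean normalized expression per cluster and mouse on a linear scale, and each of the 92 columns sums to 10000.

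Of 19632 rows, 23 with date-like names were left out. Cluster names follow the sheet order of the study's marker table and were checked on 50 markers. Differences of log2(value + 1) were computed in Python 3.11.15 with numpy 2.4.6 and pandas 2.3.3, over all 19609 rows, keeping a gene where the larger value reached 0.5, with a threshold of 0.2. With 1 mouse per condition, no p-value was computed. All 9 members are named in each comparison, and of the 38 other pathway genes those with the 5 largest called differences, apart from results that are not reported here. The members and lists were chosen with earlier results of these data known.

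The alternatives tried were a threshold of 0.5, a pseudocount of 0.1, a minimum of 2 or none, centring on the median of all genes, the median of clusters in place of the mean, PT-S3 clusters as the reference for injured clusters, and each AAI mouse alone. Means without PT-S3-2 or PT-S3-3 were added after the data were seen.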

Additional observations from a re-analysis of the deposited data

Results flagged for a closer look

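Bcat1 in PT-S3-2 differed between the genotypes in its response to AAI. The difference with AAI was 0.75 on the log2 scale in control mice (1.63 to 3.43) and -0.57 in hKLF6OE mice (4.80 to 2.90), so the response in hKLF6OE minus that in control was -1.32. The values moved in opposite directions, each from 1 mouse per condition, and the difference was not tested. Only normal proximal tubule clusters were considered for this flag. In other clusters, members also moved past the threshold in opposite directions in control and hKLF6OE. Examples are Bcat2 in LH-AL-3 (-0.76 and 0.71), Bckdhb in macrophages (0.21 and -1.16) and Pccb in EC-2 (0.31 and -0.29).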

How the results depend on the processing

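No paired analysis was possible because each condition has 1 mouse. Of the counts of members called, 90 of 118 recomputed counts stayed within 1.5 times the original and 28 did not. Each setting also changes the calls of all genes, and their shares under it are not given here. The counts below therefore show how calls depend on the settings, and not what sets the members apart from other genes. With a pseudocount of 0.1, 1 member was lower in S3, 3 were lower in hKLF6OE than control with AAI, and 1 was higher in InjuredPT-A. With a minimum of 2, 0 members were higher in S3, in hKLF6OE without AAI or with AAI in control, 1 was lower with AAI in control and 1 in hKLF6OE, 0 were lower in hKLF6OE than control with AAI, and 1 was lower in each injured cluster. This alternative leaves few members to count. With a threshold of 0.5, 1 member was higher in S3, 0 were higher and 1 lower with AAI in control, 0 were lower with AAI in hKLF6OE and 0 in hKLF6OE against control with AAI, and 2 were lower in InjuredPT-A and 1 in InjuredPT-B.

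With the median of clusters, 0 members were higher in hKLF6OE without AAI and 0 with AAI in control, 2 were lower with AAI in hKLF6OE, 3 were lower in hKLF6OE than control with AAI, and 1 was higher in InjuredPT-A. InjuredPT-A also had 1 higher against the PT-S3 clusters and in the control with AAI mouse alone. Bckdhb was not called in InjuredPT-A against the PT-S3 clusters. Without PT-S3-2, 0 members were higher in hKLF6OE without AAI and 0 with AAI in control, and 1 was lower in InjuredPT-B. Removing the filter or centring moved none of the member counts by over 1.5 times.

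Of the values of single members, 34 changed sign under an alternative. Of these, 28 had not been called and were at most 0.16 in size, among them Bckdha and Ivd in the injured clusters under centring. The other 6 had been called, all of Bcat1. For AAI in hKLF6OE the difference was -0.22, and it was 0.029 with the median of clusters and 0.15 without PT-S3-2. In hKLF6OE with AAI it was 0.15 in InjuredPT-A and 0.045 in InjuredPT-B with the median, and 0.046 in InjuredPT-A without PT-S3-2. In control with AAI it was 0.017 in InjuredPT-A without PT-S3-2. Both alternatives take away the weight of PT-S3-2, where Bcat1 is concentrated. The number of nuclei behind each value is unknown, so what depth can show could not be stated.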

Other observations

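The genes whose levels followed those of a member most closely over the 92 cluster and mouse columns were found by Pearson's r of log2(value + 1). Columns share mice and library depth, so r is a description. For Bcat1 they were Mep1b (r = 0.84) and C8a (0.82), both with their highest mean in PT-S3-2. For Bckdhb they were Fads6 (0.83), Tom1l2 (0.82) and Cacnb4 (0.81), and for Ivd Selenbp1 (0.77), Ugt3a1 (0.74) and Eci3 (0.73). For Pcca they were Shroom4 (0.71), D630024D03Rik (0.70) and Plekha7 (0.69). Bckdha and Pccb had no gene above 0.61, with Hagh (0.61) and Coasy (0.57) the closest.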
